A study of Homo sapiens with 16 samples.

Results

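The SEC61 translocon, its accessory proteins SEC62 and SEC63, the translocon-associated protein (TRAP) complex and SERP1 form the machinery through which new secretory and membrane proteins enter the endoplasmic reticulum (ER). The 10 genes that encode this machinery were chosen by name from the 58051 genes of the deposited table: SEC61A1, SEC61B and SEC61G for the channel, SEC62 and SEC63 for its partners, SSR1, SSR2, SSR3 and SSR4 for the TRAP complex, and SERP1. Every one of them was listed once and passed the filter on low counts in every comparison. The data were RNA-seq of LNCaP, an androgen-sensitive human prostate cancer cell line, at passage 20. In the knockdown experiment, cells were given Allstar control siRNA (siCtrl) or XBP1 siRNA (siXBP1) 2 days before stress. In the inhibitor experiment, cells received DMSO (Vehicle) or 10 µM MKC8866, an inhibitor of the IRE1α RNase, for 24 h. All 4 groups, controls included, were then exposed for 3 h to 30 nM thapsigargin, a blocker of the ER calcium pump that causes ER stress, so no unstressed cells were measured. Each group held 4 libraries from the same cell line, and the study describes the 4 as independent samples without saying in the sources used here whether they were separate cultures, so p-values measure the spread between these samples, which may be technical.

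Secretory proteins are brought to the ER membrane by the signal recognition particle and thread through the SEC61 channel, whose large subunit is encoded by SEC61A1 and whose small subunits are encoded by SEC61B and SEC61G. SEC62 and SEC63 help proteins that arrive after their synthesis, the TRAP complex sits beside the channel and helps substrates with weak signals, and SERP1, also named RAMP4, is a small protein associated with the channel and induced by stress. When ER stress activates IRE1α, its RNase starts the splicing of the XBP1 mRNA, and the spliced product, XBP1s, is a transcription factor for many genes of the ER.

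Read depth was similar across the 16 libraries, from 28713607 to 34509488 counted fragments. XBP1 itself stood at 383 ± 28.0 CPM (counts scaled to a common library size and composition, mean ± SD, n = 4 in each group) in siCtrl, 53.2 ± 1.40 in siXBP1, 503 ± 25.3 in Vehicle and 579 ± 34.0 in MKC8866. The knockdown was thus seen in the XBP1 mRNA of all 4 siXBP1 libraries, and XBP1 mRNA rose with MKC8866 (log2 fold change 0.20 ± 0.04, adjusted p = 0.00493, edgeR), with slightly overlapping groups. These counts do not tell the spliced form, which an RNase inhibitor lowers, from the unspliced one. The 8 listed LNCaP and prostate markers were above 10 CPM in every library, but their levels were not constant. After knockdown 4 of the 8 fell, against 18.2% of all tested genes called lower. KLK3 fell by 0.86 ± 0.04, KLK2 by 0.78 ± 0.04, TMPRSS2 by 0.89 ± 0.04 and KRT18 by 0.35 ± 0.05 on the log2 scale. The summed level of the 8 was 3589 to 3741 CPM in siCtrl and 3038 to 3137 CPM in siXBP1. With MKC8866 KLK3 rose (0.46 ± 0.04), KRT18 fell (−0.22 ± 0.04), and the sum was 3594 to 3785 CPM in Vehicle and 3924 to 4088 CPM in MKC8866. With the replicate block 4 of the 8 rose and 1 fell with MKC8866, while 1262 of all 21045 tested genes were called higher and 1484 lower. The part of these shifts in the results below was not tested. Of the 5 markers of other cell types, PTPRC, PECAM1, KRT5 and TP63 were under 1 CPM in every library, and COL1A1, a collagen gene, lay between 24.7 and 36.6 CPM, with log2 fold changes of 0.16 ± 0.07 after knockdown and −0.24 ± 0.08 with MKC8866 that did not pass (adjusted p = 0.0762 and 0.0799, edgeR; 0.000157 for MKC8866 with the block).

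The promoters are shown because XBP1s is known to bind short elements with an ACGTG core. In the RefSeq promoter table (GRCh38.p14), all 10 genes had an entry, with 14 transcription starts in all, each given as 250 bases before the start and 50 from the start on. The motifs searched, on both strands, were ERSE (CCAAT, 9 bases of any kind, CCACG), ERSE-II (ATTGG, 1 base of any kind, CCACG), UPRE (TGACGTGG), the E-box CACGTG and the core ACGTG, which is contained in the UPRE and in the E-box. Of the 6 promoters printed here, 5 hold matches, in capitals, and that of SSR2 is shown as one without any. Minus-strand matches appear as the reverse complement, and each sequence runs 5′ to 3′ along its gene. Besides start 3 of SSR3, the printed starts of SERP1 (150546496), SSR1 (7313199) and SSR4 (153794668) lie inside the counted genes. The 5′ ends of SERP1, SSR1 and SSR4 are annotated at 150603228, 7347446 and 153793516.
SERP1, chr3:150546447-150546746, minus strand: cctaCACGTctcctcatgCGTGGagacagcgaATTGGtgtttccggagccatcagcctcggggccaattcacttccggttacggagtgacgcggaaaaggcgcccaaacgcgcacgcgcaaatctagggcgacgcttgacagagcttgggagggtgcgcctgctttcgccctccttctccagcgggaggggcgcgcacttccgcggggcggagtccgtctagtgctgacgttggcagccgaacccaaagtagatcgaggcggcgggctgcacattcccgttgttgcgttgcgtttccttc
SSR1, chr6:7313150-7313449, minus strand: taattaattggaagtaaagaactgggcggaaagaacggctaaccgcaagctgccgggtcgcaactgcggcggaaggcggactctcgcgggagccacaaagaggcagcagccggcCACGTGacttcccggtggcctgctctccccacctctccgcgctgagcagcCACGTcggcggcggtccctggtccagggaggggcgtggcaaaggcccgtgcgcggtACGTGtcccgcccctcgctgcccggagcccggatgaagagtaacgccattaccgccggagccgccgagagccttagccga
SSR2, chr1:156020902-156021201, minus strand: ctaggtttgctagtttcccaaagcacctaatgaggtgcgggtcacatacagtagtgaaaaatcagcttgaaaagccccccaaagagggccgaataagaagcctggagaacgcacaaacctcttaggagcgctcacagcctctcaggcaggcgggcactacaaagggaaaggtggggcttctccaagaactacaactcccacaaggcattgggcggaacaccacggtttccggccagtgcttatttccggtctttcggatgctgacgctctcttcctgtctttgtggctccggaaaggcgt
SSR3 (start 3 of 3, inside the gene), chr3:156554076-156554375, minus strand: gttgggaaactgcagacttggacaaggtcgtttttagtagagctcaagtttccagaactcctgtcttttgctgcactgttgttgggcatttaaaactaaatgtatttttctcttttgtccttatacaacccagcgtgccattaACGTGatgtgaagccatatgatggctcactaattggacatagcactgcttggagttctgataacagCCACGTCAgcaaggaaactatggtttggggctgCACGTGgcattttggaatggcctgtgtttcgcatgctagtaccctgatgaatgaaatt
SSR4 (start 2 of 2), chrX:153794418-153794717, plus strand: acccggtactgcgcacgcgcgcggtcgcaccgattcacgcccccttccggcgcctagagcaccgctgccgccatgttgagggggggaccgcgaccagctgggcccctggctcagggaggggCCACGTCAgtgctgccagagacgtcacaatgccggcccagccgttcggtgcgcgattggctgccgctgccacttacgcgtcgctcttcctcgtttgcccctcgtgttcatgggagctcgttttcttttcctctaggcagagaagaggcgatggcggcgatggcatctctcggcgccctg
SEC62, chr3:169966557-169966856, plus strand: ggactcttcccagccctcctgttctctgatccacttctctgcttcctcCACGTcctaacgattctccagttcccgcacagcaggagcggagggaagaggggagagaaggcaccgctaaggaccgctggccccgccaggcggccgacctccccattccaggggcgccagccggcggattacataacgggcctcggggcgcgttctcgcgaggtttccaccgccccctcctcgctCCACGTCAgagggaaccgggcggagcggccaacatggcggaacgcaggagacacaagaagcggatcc

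SERP1 held the only ERSE of the 10 genes, from base −232 to −214 before its start, an element found in 27 of the 35116 promoters of the table (0.0769%) and, counted like the 10 genes at any of their starts, in 0.15% of the 12649 tested genes with an entry. The UPRE was present in SEC62 from −17 to −10, at start 3 of SSR3 from −41 to −34, and at start 2 of SSR4 from −129 to −122, so in 3 of the 10 genes, against 1.15% of the tested genes (0.729% of all promoters). The core occurred at 1 or more starts of 8 of the 10 genes, with 31.2% of the tested genes and 21.4% of all promoters holding it, and SEC61B and SSR2 were the genes without it. The E-box was found in SSR1 and at 2 starts of SSR3 (11.97% of the tested genes, 7.26% of all promoters), and ERSE-II, at 0.119% of the tested genes and 0.0541% of all promoters, in none of the 10 genes. A match is a run of letters and was not tested for binding.

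**Figure D1:**
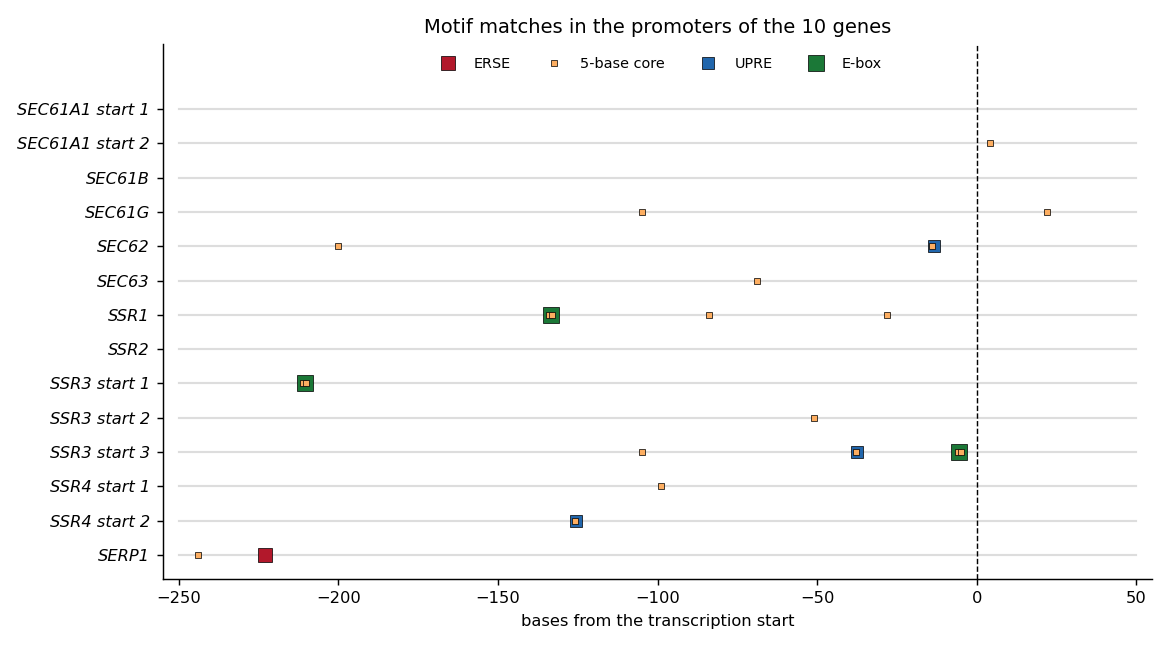
Position of each motif match (squares, coloured by motif) along the promoters of the 10 genes, 1 line per RefSeq transcription start, with bases from the start on the x axis. The ERSE square lies on the SERP1 line, UPRE squares on those of SEC62, SSR3 start 3 and SSR4 start 2, and the lines of SEC61B and SSR2 are empty.

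Levels were compared between genes only per kilobase of annotated exon. In siCtrl, SEC61A1 had the highest level, 163 ± 6.38 CPM per kb, followed by SEC61B at 63.8 ± 1.94, SERP1 at 56.6 ± 2.36 and SSR3 at 47.3 ± 1.24, and these 4 did not overlap one another. SSR4 (38.5 ± 3.12 CPM per kb), SEC63 (35.3 ± 1.82) and SSR2 (34.6 ± 0.865) came next, and neighbours among them overlapped. SSR1 was at 28.5 ± 0.586 CPM per kb, and SEC61G (23.8 ± 2.11) and SEC62 (21.6 ± 1.32) overlapped at the low end. After knockdown SERP1 stood below SSR4 and SEC63, at 20.0 ± 2.09 CPM per kb, where it overlapped SSR3. With MKC8866 it stayed next below SEC61B, at 39.0 ± 2.63 CPM per kb, while SSR1 became the lowest of the 10 at 16.3 ± 0.793. Merged exon length, from 1190 bases in SEC61B to 11349 bases in SSR1, counts rarely used exons too, so these levels can understate genes with long annotated exons.

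To ask how far the translocation machinery depends on XBP1 in stressed LNCaP cells, siXBP1 was compared with siCtrl. All 10 genes fell (edgeR quasi-likelihood test, adjusted p over all 21021 genes of at most 0.000408), against 18.2% of all tested genes called lower. The falls ran from SERP1, which was left at 35.4% of siCtrl, through SSR3 (41.5%), SSR2 (41.8%) and SSR1 (52.3%), to SEC62 at 84.6%. The highest siXBP1 library lay below the lowest siCtrl library for all 10 genes, as it did for 17.2% of all tested genes. The median log2 fold change of the 10 genes was −0.76 and that of all tested genes 0.00499. In bulk RNA, fewer cells that express a gene and less of its RNA per cell cannot be told apart. Summed over the 10 genes, the level went from 2633 ± 34.6 CPM to 1473 ± 41.0 CPM.

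To ask the same of the IRE1α RNase, MKC8866 was compared with Vehicle. In this comparison 9 of the 10 genes fell, against 3.11% of all 21045 tested genes called lower, and SEC62 did not pass the test. SSR2 was left at 52.3% of Vehicle, SSR1 at 57.6%, SERP1 at 59.4% and SSR3 at 66.4%, and the remaining genes that fell at 69.6% to 78.6%. These 9 genes had no overlap between the groups, as 5.29% of all tested genes did in this direction. The median log2 fold change was −0.52, with 0.0027 for all tested genes. Replicate numbers were taken to pair the libraries of this experiment. With the replicate block the same 9 genes fell while 7.05% of all tested genes were called lower. The summed level went from 2653 ± 17.2 CPM to 1811 ± 41.5 CPM.

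**Figure D2:**
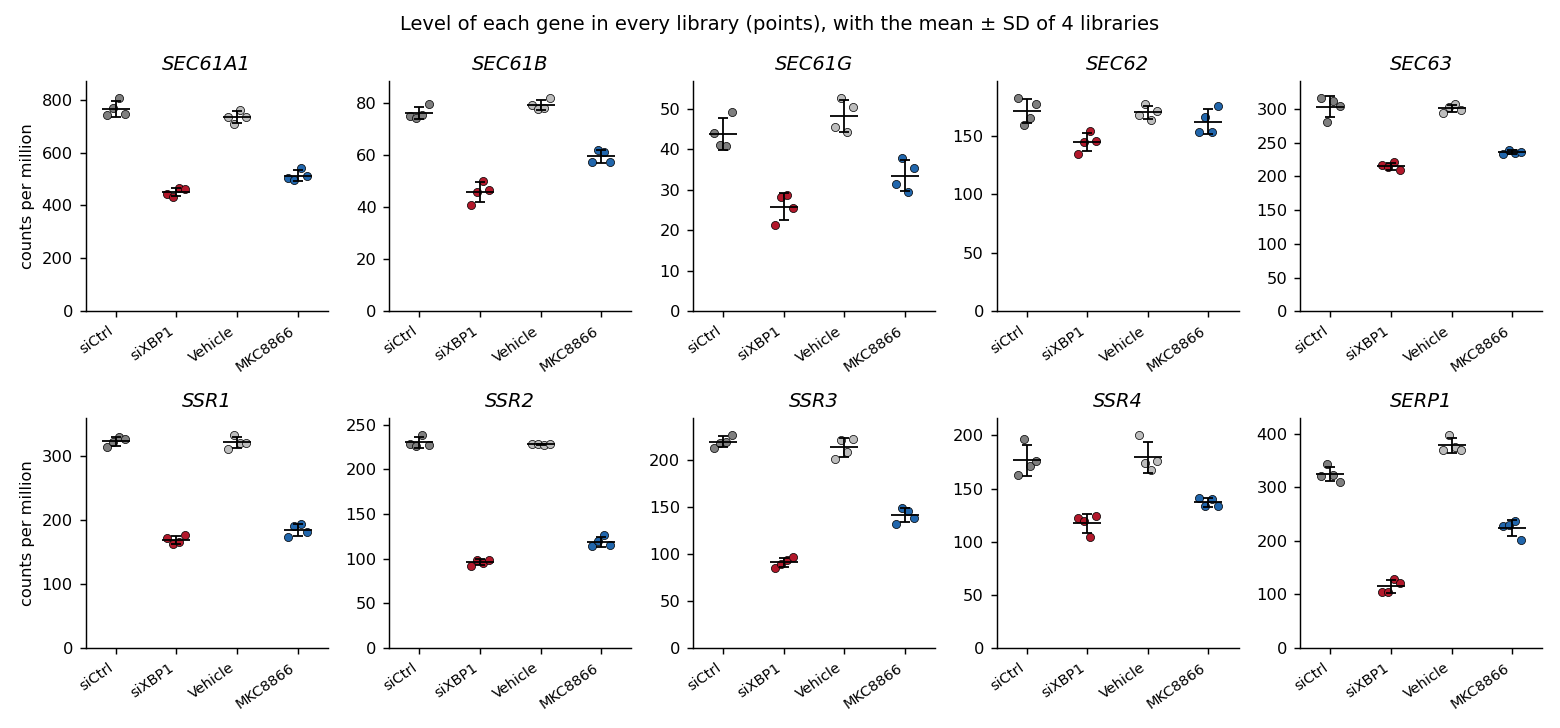
CPM of each of the 10 genes (1 panel each, y axis from 0) in every library, with black bars for the mean ± SD of 4 libraries. The siXBP1 points lie below the siCtrl points in every panel, and the MKC8866 points lie below the Vehicle points in every panel except that of SEC62.

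Among the genes of the channel, SEC61A1 (chromosome 3, from 128051641 to 128071683) measured 741, 769.6, 806 and 744 CPM in the siCtrl libraries and 445, 433, 465 and 464 in siXBP1. It measured 733, 709, 761 and 735 CPM in Vehicle and 504, 495, 541 and 512 in MKC8866. All treated libraries were thus well below all controls, and the siXBP1 libraries were below the MKC8866 ones. Its log2 fold change was −0.76 ± 0.04 (SE) after knockdown (adjusted p = 1.22e-12, edgeR) and −0.52 ± 0.04 with MKC8866 (adjusted p = 7.33e-10, edgeR). SEC61B (chromosome 9, from 99222064 to 99230615) measured 76.0 ± 2.31 CPM in siCtrl against 45.7 ± 3.81 in siXBP1, and 79.1 ± 1.90 CPM in Vehicle against 59.4 ± 2.44 in MKC8866. SEC61G (chromosome 7, from 54752250 to 54759974) measured 43.8 ± 3.89 and 25.9 ± 3.39 CPM in the knockdown groups and 48.3 ± 3.91 and 33.5 ± 3.82 CPM in the inhibitor groups. Its lowest library still held 615 fragments. The 3 channel genes fell by similar amounts after knockdown, with log2 fold changes of −0.76, −0.73 and −0.76, and by −0.52, −0.41 and −0.52 with MKC8866.

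SEC62 and SEC63, the partners of the channel, had the smallest changes. SEC62 (chromosome 3, from 169966635 to 169998373) measured 182, 159.7, 166 and 177 CPM in siCtrl and 135, 145, 154 and 146 in siXBP1. In Vehicle it measured 168, 177, 164 and 172 CPM, and in MKC8866 153.5, 166, 153 and 176. The siXBP1 libraries lay just below siCtrl, and the MKC8866 libraries overlapped Vehicle, with 2 below its range and 2 within it. The log2 fold change of SEC62 was −0.24 ± 0.05 after knockdown (adjusted p = 0.000408, edgeR). With MKC8866 it was −0.07, with a 95% interval from −0.16 to 0.03 (adjusted p = 0.552, edgeR, and 0.101 with the replicate block). SEC63 (chromosome 6, from 107867756 to 107958189), a membrane J-protein that recruits the chaperone BiP to the channel, measured 303 ± 15.7 CPM in siCtrl against 215 ± 5.12 in siXBP1, and 301 ± 5.54 CPM in Vehicle against 236 ± 2.78 in MKC8866. It fell in both comparisons, by 0.49 ± 0.04 and 0.35 ± 0.04 on the log2 scale.

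The 4 genes of the TRAP complex fell in both treatments but unequally. SSR1 (chromosome 6, from 7268306 to 7347446), the alpha subunit, measured 315, 322, 329.9 and 328 CPM in siCtrl and 172, 162, 166 and 178 in siXBP1. It measured 312, 334, 321 and 321 CPM in Vehicle and 174, 191, 194 and 182 in MKC8866. Its siXBP1 and MKC8866 libraries overlapped, with log2 fold changes of −0.93 ± 0.04 and −0.80 ± 0.04. SSR2 (chromosome 1, from 156009048 to 156020959), the beta subunit, measured 228, 226, 239 and 227 CPM in siCtrl and 91.9, 99.0, 94.96 and 98.9 in siXBP1. It measured 228, 228, 227 and 228 CPM in Vehicle and 114, 120.1, 126 and 116 in MKC8866. The treated libraries were far below the controls in both experiments, with log2 fold changes of −1.26 ± 0.04 (adjusted p = 2.71e-16, edgeR) and −0.94 ± 0.04 (adjusted p = 4.01e-14, edgeR).

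SSR3 (chromosome 3, from 156540140 to 156555184), the gamma subunit, measured 213, 218, 219 and 226 CPM in siCtrl and 85.5, 88.9, 93.2 and 96.4 in siXBP1. It measured 201, 221, 208 and 222 CPM in Vehicle and 132, 149, 145 and 138 in MKC8866. SSR3 was near SSR2 after knockdown, with a log2 fold change of −1.27 ± 0.04, but fell less with MKC8866, at −0.59 ± 0.04. SSR4 (chromosome X, from 153793516 to 153798505), the delta subunit, was the TRAP gene with the smallest falls. It measured 177 ± 14.3 CPM in siCtrl against 118 ± 9.07 in siXBP1, and 179 ± 14.6 CPM in Vehicle against 137 ± 4.23 in MKC8866. These are log2 fold changes of −0.59 ± 0.06 and −0.38 ± 0.05.

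SERP1 (chromosome 3, from 150541994 to 150603228) measured 322, 343, 324 and 311 CPM in siCtrl and 105, 104.5, 129 and 122 in siXBP1. It measured 369.9, 398, 376 and 369.9 CPM in Vehicle and 229, 229, 237 and 202 in MKC8866. It had the largest fall of the 10 genes after knockdown, with a log2 fold change of −1.50 ± 0.06 (adjusted p = 4.11e-15, edgeR), and −0.75 ± 0.05 with MKC8866 (adjusted p = 2.14e-11, edgeR). Its level in MKC8866 remained above that in siXBP1 in every library.

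**Figure D3:**
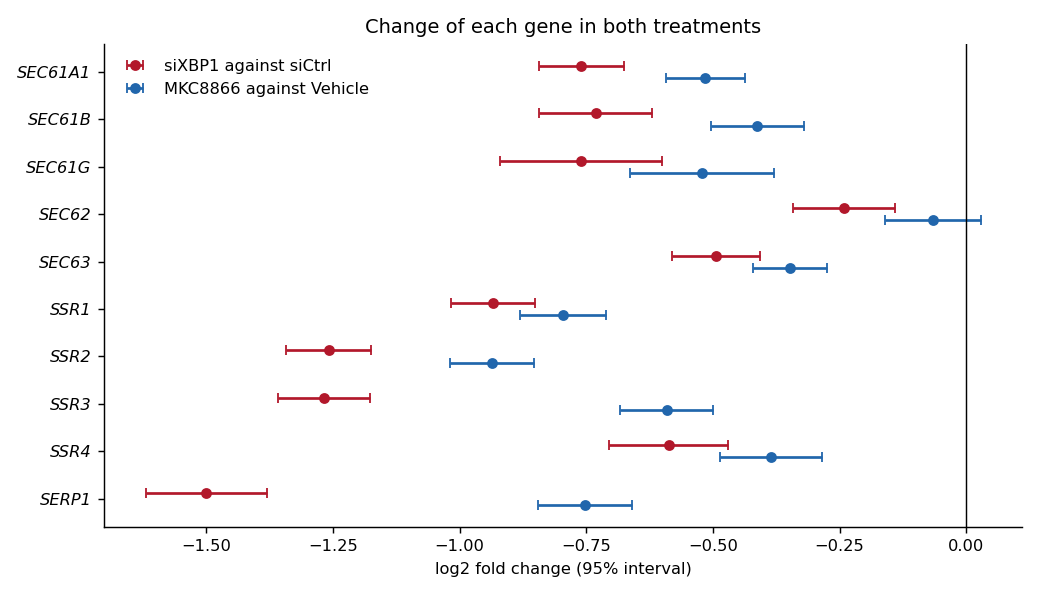
Log2 fold change of each gene (y axis) after XBP1 knockdown (red) and with MKC8866 (blue), with 95% intervals from the edgeR fits and a line at 0. All points lie left of 0, the blue interval of SEC62 crosses it, and the red and blue intervals of SEC61A1, SEC61B, SSR2, SSR3 and SERP1 do not overlap.

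The difference between both responses was tested as an interaction over the 16 libraries. Of the 10 genes, 6 fell further after knockdown, against 12.7% of the 20357 tested genes with a lower response after knockdown. SERP1 and SSR3 differed most, by −0.75 ± 0.08 and −0.67 ± 0.06 on the log2 scale (adjusted p = 1.24e-08 and 1.50e-09, edgeR). The differences of SSR2 (−0.32 ± 0.05), SEC61B (−0.32 ± 0.07) and SEC61A1 (−0.24 ± 0.05) also passed, with adjusted p of at most 0.00136 (edgeR). That of SEC63, −0.14 ± 0.05, was at the threshold (adjusted p = 0.0494, edgeR) and passed it in 3 of the 16 fits that each left out 1 library. Those were the fits without siCtrl replicate 2, siXBP1 replicate 3 or Vehicle replicate 3, and in the others the difference was −0.15 to −0.12. It was also lost with the size factors of DESeq2 in place of TMM and with no filter on low counts.

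SSR1, SSR4, SEC62 and SEC61G did not pass, with differences of −0.14 (95% interval −0.25 to −0.02), −0.20 (−0.37 to −0.03), −0.17 (−0.32 to −0.03) and −0.24 (−0.47 to −0.000943). With the replicate block SSR1, SSR4 and SEC62 passed as well (adjusted p = 0.0267, 0.0205 and 0.0399, edgeR), which made 9 genes against 14.7% of all tested genes, and SEC61G stayed at an adjusted p of 0.064 (edgeR). That fit blocks both experiments, although the numbers were taken as pairs in the inhibitor experiment only. Without the block, SEC62 passed when siCtrl replicate 2, siXBP1 replicate 3, MKC8866 replicate 1 or MKC8866 replicate 3 was left out (−0.21 to −0.20), SSR1 when siXBP1 replicate 4 or MKC8866 replicate 1 was (−0.16), and SSR4 when siCtrl replicate 1 or Vehicle replicate 1 was (−0.24 and −0.26). On the log2 scale, the response to MKC8866 was 46.6% of that to knockdown for SSR3 and 50.2% for SERP1, but 74.4% for SSR2 and 85.2% for SSR1. The order of the 10 genes was much alike in both treatments (Spearman's rho = 0.90 over the 10 genes, which are not independent replicates). The experiments had separate controls and pretreatments of different length, so the kind of treatment and the experiment cannot be told apart.

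The stressed control groups were also compared with each other. Of the 10 genes, SERP1 was the one that differed, at 325 ± 13.5 CPM in siCtrl and 378 ± 13.5 CPM in Vehicle (log2 difference −0.22 ± 0.05, adjusted p = 0.00496, edgeR), whereas 15% of all tested genes were called in either direction. For the other 9 genes the 95% intervals of the difference lay between −0.30 and 0.14. XBP1 also differed between these controls, by −0.39 ± 0.05, and whether that has a part in the SERP1 difference was not tested.

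The balance of the genes within each library was followed by ratios of counts, which need no scaling between libraries. Of the 7 ratios, 5 changed after knockdown and 5 with MKC8866, each with groups that did not overlap. The exact two-sided permutation p of these was 0.0286, the smallest that 4 against 4 libraries can give, and 0.04 after Benjamini-Hochberg adjustment over 14 tests. Ratios of other gene pairs were not computed, so how often any pair of genes would separate in this way is not known. Several ratios share SSR4 or SEC61A1, and all use the same counts as the fold changes, so they are not separate support. The TRAP genes shifted against SSR4: in siCtrl there were 1.84 SSR1 fragments and 1.31 SSR2 fragments per SSR4 fragment, and in siXBP1 1.44 and 0.82. In Vehicle these 2 ratios were 1.80 and 1.27, and in MKC8866 1.35 and 0.867. The SSR3 to SSR4 ratio went from 1.24 to 0.775 after knockdown, and from 1.19 to 1.03 with MKC8866, where the groups overlapped (exact permutation p = 0.114, adjusted 0.145).

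SEC62 gained on SEC63 in both experiments, from 0.565 to 0.673 fragments per SEC63 fragment after knockdown and from 0.566 to 0.687 with MKC8866. SERP1 lost on SEC61A1, from 0.425 to 0.253 fragments per SEC61A1 fragment after knockdown and from 0.515 to 0.437 with MKC8866. Within the channel, the log2 ratio of SEC61G to SEC61A1 differed by −0.01 in both experiments, with group SDs of 0.15 to 0.21. That of SEC61B to SEC61A1 differed by 0.02 after knockdown (exact permutation p = 0.771) and by 0.10 with MKC8866 (exact permutation p = 0.0286). In the latter the lowest MKC8866 library (−3.161) lay just above the highest Vehicle library (−3.168). A count ratio depends on the lengths of both genes, so its change between groups is the quantity to read.

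**Figure D4:**
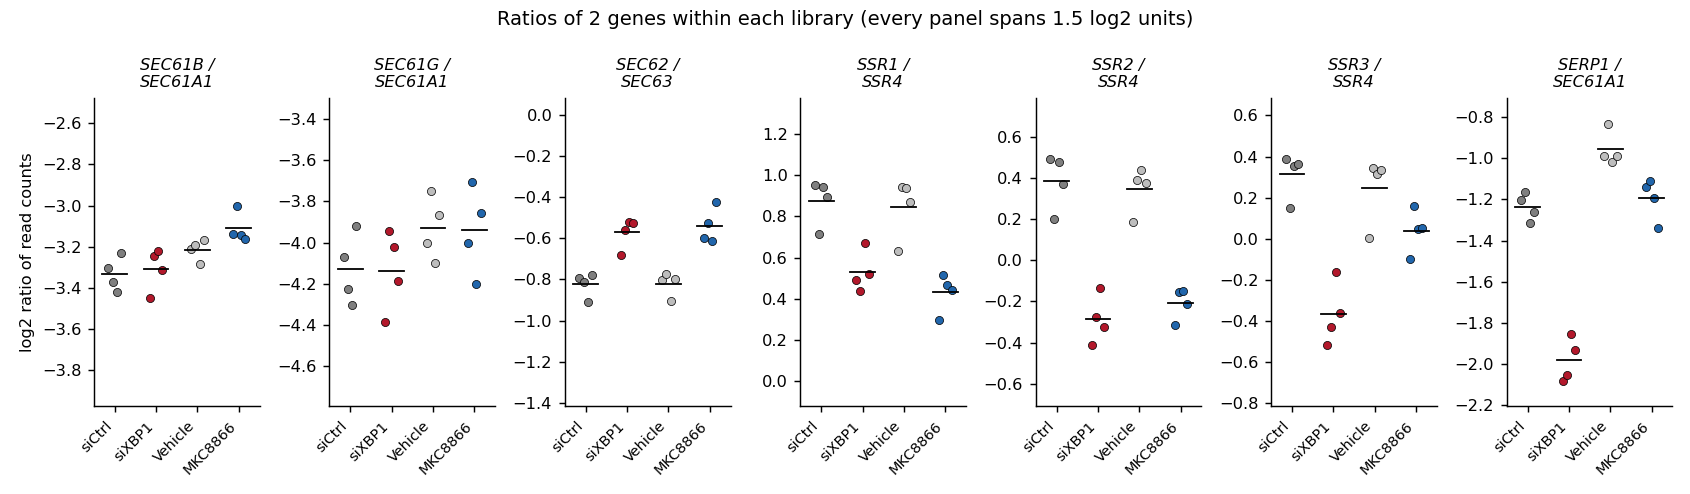
Log2 ratio of the read counts of 2 genes in each library (points), 1 panel per ratio and all panels spanning the same 1.5 log2 units, with lines for the group means. Treated and control points lie apart for SEC62 to SEC63, SSR1 to SSR4, SSR2 to SSR4 and SERP1 to SEC61A1 in both experiments, and the points of SEC61G to SEC61A1 are mixed.

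The other genes of the pathway changed less evenly. Beside the counts of lower genes in the lists that follow, 18.2% of all tested genes were called lower after knockdown, 3.11% with MKC8866 and 7.05% with MKC8866 and the block. Genes called in either direction made up 34.8% after knockdown and 4.47% with MKC8866. Higher genes were thus common after knockdown among all tested genes too, and single rises in a list are not particular to it. Of the 8 genes of the signal recognition particle and its receptor, which deliver the ribosome to the channel, 6 fell after knockdown and the same number with MKC8866, and none rose. With MKC8866, 1 of the 6 was near the threshold (−0.15 ± 0.04, adjusted p = 0.0404, edgeR). It passed in 3 of the 8 fits that each left out 1 library, and with the replicate block (adjusted p = 3.44e-05, edgeR). SRPRB, the membrane-bound receptor subunit, went from 114 ± 3.69 to 64.1 ± 4.17 CPM after knockdown (log2 fold change −0.83 ± 0.05), and SRP19, which binds the RNA of the particle, from 19.7 ± 1.23 to 12.96 ± 0.761 CPM with MKC8866 (−0.61 ± 0.07). Of the 12 genes of the oligosaccharyltransferase, which attaches sugars to chains as they leave the channel, 8 fell and 2 rose after knockdown. With MKC8866 9 fell and none rose, and with the block further genes of the list fell too (−0.17 and −0.09 on the log2 scale). OSTC, a subunit that joins the complex to the translocon, had the largest fall after knockdown (−0.96 ± 0.06) and fell with MKC8866 too (−0.61 ± 0.05). KRTCAP2, a small subunit of the same enzyme, fell most with MKC8866 (−0.63 ± 0.08, from 8.58 ± 0.325 to 5.52 ± 0.354 CPM) and did not pass the test after knockdown (−0.26 ± 0.14, adjusted p = 0.154, edgeR), though it did without siCtrl replicate 4 (−0.39). TUSC3, an oxidoreductase subunit, rose after knockdown by 0.17 ± 0.06 (adjusted p = 0.0411, edgeR) with overlapping groups. That call was lost without siCtrl replicate 3 (0.15), siCtrl replicate 4 (0.16), siXBP1 replicate 3 (0.12) or siXBP1 replicate 4 (0.16), and with all 16 libraries in one fit (0.17). The other gene of the list that rose after knockdown (0.14 ± 0.04, adjusted p = 0.0106, edgeR) had no overlap between the groups. It passed in all 8 fits that each left out 1 library and with the replicate block (adjusted p = 0.0109, edgeR).

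Signal peptidase, which trims the signal from the entering chain, had 3 of 5 genes lower in both treatments. SPCS3 went from 127 ± 9.09 to 97.1 ± 4.12 CPM with MKC8866 (−0.38 ± 0.05), and SEC11C, a catalytic subunit, from 141 ± 6.91 to 104 ± 7.95 CPM after knockdown (−0.44 ± 0.05). With the replicate block all 5 fell with MKC8866. Of the 10 genes of the TRAM proteins and the multipass translocon, 4 fell after knockdown and 1 with MKC8866. With the block 2 fell with MKC8866 and another rose by 0.10 on the log2 scale (adjusted p = 0.0084, edgeR). TRAM1, a membrane protein beside the channel, was the gene that fell with MKC8866 without the block. It stood at 224 ± 8.38 CPM in siCtrl, 106 ± 2.46 in siXBP1, 222 ± 11.4 in Vehicle and 177 ± 7.39 in MKC8866. Its response differed between the treatments by −0.76 ± 0.06 (adjusted p = 2.84e-11, edgeR).

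The 8 genes of the routes for tail-anchored and SND-dependent proteins, which reach the membrane by other means, had 1 gene lower and 1 higher after knockdown and 1 lower with MKC8866 (3 with the block). TMEM208 was the gene that fell, by 0.30 ± 0.05 and 0.24 ± 0.05 on the log2 scale. GET4 rose after knockdown from 5.45 ± 2.21 to 10.1 ± 4.36 CPM, with overlapping groups, and did not pass in DESeq2. The median log2 fold changes of the lists after knockdown were −0.48 for the signal recognition particle and receptor, −0.38 for signal peptidase, −0.32 for the oligosaccharyltransferase, −0.08 for TRAM and the multipass translocon and −0.03 for the tail-anchored and SND routes. With MKC8866 they were −0.30, −0.29, −0.29, −0.03 and −0.05 in the same order. In either direction, 34.8% of all tested genes were called after knockdown and 4.47% with MKC8866.

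The paralogues were weakly expressed. SEC61A2, the second gene for the large channel subunit, measured 17.1 ± 1.23 CPM in siCtrl and 19.6 ± 0.748 in siXBP1, a rise of 0.20 ± 0.06 (adjusted p = 0.0214, edgeR) with overlapping groups. The call was lost without siCtrl replicate 3 (0.17), siXBP1 replicate 2 (0.19) or siXBP1 replicate 4 (0.19). With MKC8866 its log2 fold change was 0.03 ± 0.06 (adjusted p = 0.889, edgeR). SERP2 was at or under 0.136 CPM in every library and was not tested. HSPA5, which encodes BiP, the chaperone that works with SEC63 on the lumenal side, rose by 0.30 ± 0.05 after knockdown and fell by 0.15 ± 0.03 with MKC8866. ERN1, which encodes IRE1α, fell by 0.16 ± 0.04 after knockdown and rose by 0.25 ± 0.04 with MKC8866.

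**Figure D5:**
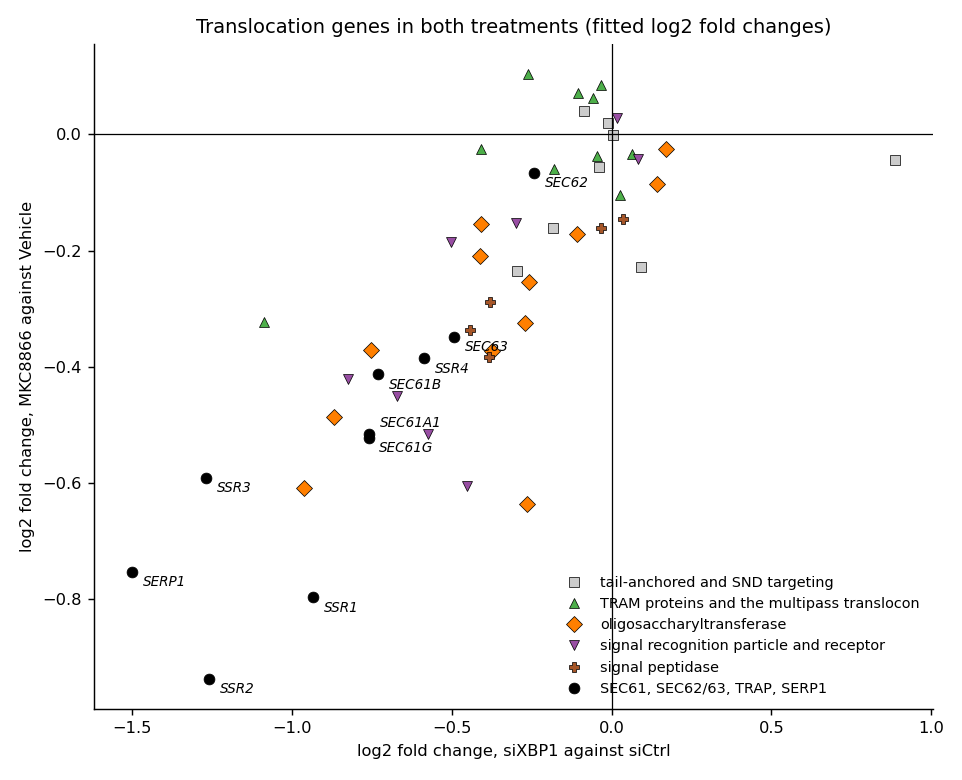
Fitted log2 fold change with MKC8866 (y axis) against that after knockdown (x axis) for the 10 genes (black circles, named) and the genes of the 5 pathway lists (coloured symbols). SERP1, SSR1, SSR2 and SSR3 lie toward the lower left, and SSR4 lies nearer the origin than the channel genes. SEC62 is near the origin, and the gray square at the right is GET4 (0.89 after knockdown).

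The genes whose profile was most like that of the TRAP complex were sought among 10259 genes of at least 10 CPM on average, by the correlation with the mean of SSR1 to SSR4 over the 16 libraries, each experiment centred on its own mean. They were TMEM39A, GOLPH3L, SLC33A1, BHLHA15 and GORASP2, with Pearson's r from 0.994 to 0.997. BHLHA15, which encodes the transcription factor MIST1 of secretory cells, fell far more than any TRAP gene, with log2 fold changes of −3.58 after knockdown and −2.33 with MKC8866, so a like profile is not a like size. The genes most like SERP1 were SSR3, SEC24D, TMED10, CDC6 and LRRC59, with r from 0.987 to 0.991. SEC24D encodes a coat subunit of vesicles that leave the ER and CDC6 a DNA replication factor. Of the other translocation genes, SEC61B ranked 13th (r = 0.983) and SEC61A1 19th (r = 0.98) in likeness to SERP1, and SEC62 ranked 1484th (r = 0.763). The points share libraries and 2 treatments, so these values describe a shared order of the groups.

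Overlapping genes bear on 6 of the 10 counts, since fragments in shared exons were assigned to neither gene. SEC61A1 shares 344 exonic bases with RUVBL1 on the other strand (7.32% of its exons), SSR4 shares 278 with IDH3G (6.06%), and SERP1 shares 153 with EIF2A and 61 with SELENOT. SEC63, SSR1 and SEC62 share 1.26% to 3.54% of their exons with other genes, and SEC61B, SEC61G, SSR2 and SSR3 share none. Processed copies with counts were SEC63P1, at 175 to 319 fragments per library, and SSR4P1, at 128 to 202. Fragments that match a gene and its copy equally well were left out of the counts, and how many there were is not known from the table.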

How the data were processed

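RNA of 16 LNCaP samples was made into TruSeq stranded libraries. According to the study's methods, the labels and the file header, the authors aligned the reads to hg38 with STAR (2.5.2a) and counted fragments per gene with featureCounts (1.5.0) on the Ensembl GRCh38 annotation. The deposited values were raw counts of paired fragments regardless of strand, and left out multimapping fragments and those overlapping several genes. Every sample column was mapped through its label, and 56948 of the 58051 genes were matched to a symbol.

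From these counts, the comparisons were fitted in R 4.3.3 with edgeR 4.0.16 (TMM scaling, quasi-likelihood F test, two-sided), 1 fit per experiment, and a gene was tested where each group had a library with over 5 counts. The threshold for a call was 0.05 after Benjamini-Hochberg adjustment. The interaction and the comparison of the controls were fitted on all 16 libraries. The fits were tested on simulated counts with known changes. CPM and SD are from the TMM scaling of all 16 libraries. Ratios of counts were compared with exact permutation tests (scipy 1.17.1). Likeness was computed on log2(CPM + 0.5). Depth was 28713607 to 34509488 fragments, with a biological coefficient of variation of 5.40% (knockdown) and 4.97% (inhibitor).

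Replicate numbers are shared between groups in the labels. The deviations of same-numbered libraries from their group means correlated at 0.102 to 0.379 (mean 0.230) in the inhibitor experiment, every pair over 0.1. Differently numbered libraries there gave −0.253 to 0.159 (mean −0.0764), so some exceeded the lowest same-numbered pair. The numbers were taken as pairs there, though the pairing is not certain. In the knockdown experiment same-numbered libraries gave 0.00104 to 0.0685 and differently numbered ones −0.152 to 0.148, and the numbers were not taken as pairs. No 2 libraries of a group agreed within counting noise (chi-square per degree of freedom of at least 2.39).

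The 10 genes and the pathway lists were chosen with earlier results of these data known. Genes outside the 10 were named by rule: the called gene with the largest fall and the largest rise of each list in either comparison, the paralogues, XBP1, ERN1, HSPA5, exon-overlapping genes, processed copies and the 5 genes of most like profile. Markers given with fold changes were chosen after their values were seen. Alternatives were DESeq2 1.42.0, its size factors in edgeR, no filter, a minimum of 10 counts per library, the replicate block, 1 fit of all libraries, an adjusted p under 0.01, and leaving out each library in turn. Promoter sequences are from RefSeq (GRCh38.p14). Proteins and the splicing of XBP1 were not analysed here.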

Additional observations from a re-analysis of the deposited data

Results flagged for a closer look

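Of the 68 groups of 4 libraries examined for a value far from the others (10 genes and 7 ratios in 4 groups), 4 held one, and chance gives about 1 in 20, or 3.4. These were the highest MKC8866 library in the log2 ratio of SEC61B to SEC61A1 (−3.003), the lowest siCtrl and the lowest Vehicle library in that of SSR3 to SSR4 (0.15 and 0.0041), and the highest Vehicle library in that of SERP1 to SEC61A1 (−0.83). No CPM value of the 10 genes was set apart in this way.

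The response to knockdown differed from that to MKC8866, by the interaction test, in SEC61A1 (log2 difference −0.24), SEC61B (−0.32), SEC63 (−0.14), SSR2 (−0.32), SSR3 (−0.67) and SERP1 (−0.75). Of XBP1, ERN1, HSPA5 and the named pathway genes it differed in XBP1 (−3.05), ERN1 (−0.40), HSPA5 (0.45), OSTC (−0.35), TRAM1 (−0.76), SRPRB (−0.40) and GET4 (0.93). GET4 lost its interaction call in DESeq2 and without siCtrl replicate 3, siCtrl replicate 4, siXBP1 replicate 3 or MKC8866 replicate 4 (0.61 to 0.81 in these 4 fits). Of the named markers it differed in KLK3 (−1.32), KLK2 (−0.79), TMPRSS2 (−0.95) and COL1A1 (0.40). Of the genes with a profile like the TRAP mean it differed in TMEM39A (−0.61), GOLPH3L (−0.39), SLC33A1 (−0.40), BHLHA15 (−1.25) and GORASP2 (−0.30). Of those like SERP1 it differed in SEC24D (−0.84), TMED10 (−0.49), CDC6 (−0.82) and LRRC59 (−0.32). Both sets were picked in these libraries for profiles that fell further after knockdown, so their calls are no separate support. Pathway genes were named for the largest changes of their lists and markers after their values were seen, which biases their calls too. Of all 20357 tested genes, 12.7% had a lower response after knockdown than with MKC8866.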

How the results depend on the processing

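The call of each of the 10 genes after knockdown and with MKC8866 was on the same side of the threshold under every alternative run, and so was each call between the controls. For the interaction, the calls of SEC63, SEC62, SSR1, SSR4 and SEC61G depended on the alternative, and the cause was not tested. With the replicate block, genes lower and higher with MKC8866 rose from 654 and 287 to 1484 and 1262. The block also took the tail-anchored and SND list to 2 lower genes after knockdown (2 with all 16 libraries in one fit, too) and to 3 with MKC8866, TRAM and the multipass translocon to 2, and signal peptidase to 5. The block also ended the call of TUSC3 after knockdown (0.17). At an adjusted p under 0.01, 139 genes were higher with MKC8866, 1258 had a higher response after knockdown than with MKC8866, and 885 were lower and 946 higher in siCtrl than in Vehicle. Leaving out 1 library gave 180 to 484 genes higher with MKC8866, 1 to 2 lower genes of the tail-anchored and SND list after knockdown, and 3 to 5 lower genes of signal peptidase with MKC8866. The first range moved by over 1.5 times without MKC8866 replicate 1 (180), 2 (484), 3 (184) or 4 (191) and without Vehicle replicate 3 (188), the second without siCtrl replicate 1 and the third without MKC8866 replicate 2. The ratios moved by less than 1 SD between replicates when 1 library was left out, and 3 against 4 libraries cannot give a p under 0.0571. A paired exact test of the ratios cannot go below 0.125, so no paired call was made, and the block could not be fitted for siCtrl against Vehicle. At these counts (at least 615 fragments for each of the 10 genes in any library) counting error and the spread between libraries both limit precision.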
